A study of Mus musculus with 14 samples.

Results

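The proteasome is the large protease that degrades ubiquitin-tagged proteins. This account covers the 47 genes, of 24972 listed, whose symbols begin with Psma to Psmg followed by a number, with the interferon-inducible subunits Psmb8, Psmb9 and Psmb10 left out. They comprise 16 core genes (Psma and Psmb), 26 regulatory genes (Psmc, Psmd and Psme) and 5 Psmf and Psmg genes, and 45 of them were abundant enough to test. The RNA came from ventricles of male C57BL/6N mice and was enriched for polyadenylated transcripts. At 9 to 10 weeks old they underwent sham surgery or TAC, a constriction of the aorta that makes the ventricle pump against raised pressure. After 2 weeks, 30 TAC mice whose ejection fraction was 40 to 60% and 10 sham mice of normal function were chosen by ultrasound. All mice then received an AAV2/9 virus by tail vein, at 1e12 viral genomes in 100 ul, and hearts were taken 8 weeks after surgery, 6 weeks after the virus.

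The 4 groups were TAC+JP2NT (4 libraries), TAC+GFP (4), Sham+JP2NT (3) and Sham+GFP (3). JP2NT is the N-terminal part of junctophilin-2, a protein that ties the cell membrane to the sarcoplasmic reticulum in cardiomyocytes, and GFP is the control cargo, so every heart carried a virus. The labels used here name neither the promoter in the viruses nor whether each library is a separate mouse, so p-values measure the spread between these libraries, which may in part be technical. No uninjected or pre-surgery heart is among the libraries. The series asks whether JP2NT, given once overload has set in, alters the overloaded heart.

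Libraries held an estimated 8650188 to 14460617 gene-assigned reads. Replicates 1 and 2 of Sham+JP2NT were so alike, near what read counting alone would give, that they were averaged and counted as 1 sample, which leaves n = 4, 4, 2 and 3 in the order given above. TAC+JP2NT replicate 4 stood apart: on the first principal component of all genes (50.2% of the variance) it lay at -5.6, while the other TAC libraries lay between 20.2 and 42.9 and the sham samples between -42.1 and -38.9. All 8 cardiomyocyte markers (Myh6, Tnnt2, Tnni3, Actc1, Ryr2, Myl2, Pln and Ttn) were present in every library, with summed values of 669169 to 847156 in TAC+JP2NT, 585306 to 700132 in TAC+GFP, 1041841 to 1056602 in Sham+JP2NT and 1050137 to 1080182 in Sham+GFP. Myh6 was the largest part of these sums, with a mean of 169431 in TAC+GFP against 473831 in Sham+GFP. Between the same groups Tnnt2 had 69019 against 72693, and Ttn was higher, at 54313 against 36884. Values below are the authors' scaled gene counts, rescaled jointly over all samples, with no correction for transcript length unless a sentence says per kilobase. A gene "rose" or "fell" where limma's moderated test passed a Benjamini-Hochberg adjusted p of 0.05 over all 13212 genes tested, and fold changes are on the log2(value + 1) scale.

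The particle is built from a barrel and its caps. Psma genes encode the outer alpha rings, which gate the barrel, and Psmb genes encode the inner beta rings, where Psmb5, Psmb6 and Psmb7 carry the chymotrypsin-like, caspase-like and trypsin-like proteolytic sites. Psmc genes encode the ATPase ring that unfolds substrates, and Psmd genes encode the other subunits of the cap, among them the ubiquitin receptor Psmd4 and the deubiquitinase Psmd14. Psme genes encode ATP-independent activators, Psmf1 encodes the proteasome inhibitor PI31, and Psmg genes encode chaperones that assemble the alpha ring. In mammals the transcription factor encoded by Nfe2l1 raises many of these genes together when the proteasome is inhibited, through antioxidant response elements in their promoters. Cardiomyocytes rely on the proteasome to turn over sarcomere proteins. Not every symbol taken in by the rule is a subunit of this particle: Psmc3ip is a recombination factor, Psma8 is the testis alpha subunit, Psmb11 the thymus beta subunit, Psme2b a near copy of Psme2, and Psmd5, Psmd9 and Psmd10 are assembly chaperones of the cap.

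Promoters of 5 members, each of which rose under at least 1 vector, are printed here because they show which of 4 short motifs stand near the starts of these genes. They are the exon-free stretches within 250 bases before the RefSeq start (RefSeq, GRCm38.p6), 5′ to 3′ on the gene's strand, in lower case with motif matches in capitals. Psmb5 (chr14:54618023-54618245, minus strand) and Psmb6 (chr11:70525107-70525356, plus strand) each hold the antioxidant response element TGACNNNGC, at 47 and 9 bases before the start. For Psmb6 the bases just after that start did not occur whole in any GENCODE transcript of the gene, so its distance holds for the RefSeq start only. Psma3 (chr12:70974373-70974620, plus strand) holds a CCAAT box and the NRF-1 motif, which is GCGCA, any base, then GCGC. Psmd11 (chr11:80428365-80428614, plus strand) holds the ETS motif CCGGAAG on the opposite strand. Psma5 (chr3:108256676-108256877, plus strand) holds none of them in the stretch shown.
Psmb5: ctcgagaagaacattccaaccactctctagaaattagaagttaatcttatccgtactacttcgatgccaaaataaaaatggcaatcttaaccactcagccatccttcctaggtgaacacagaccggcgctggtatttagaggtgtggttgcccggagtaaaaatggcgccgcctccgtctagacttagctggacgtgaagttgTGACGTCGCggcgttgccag
Psmb6: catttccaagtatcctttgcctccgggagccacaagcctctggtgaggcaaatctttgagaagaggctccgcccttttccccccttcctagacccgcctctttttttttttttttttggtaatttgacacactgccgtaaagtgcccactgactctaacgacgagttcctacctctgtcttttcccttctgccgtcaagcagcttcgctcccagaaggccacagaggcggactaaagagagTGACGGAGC
Psma3: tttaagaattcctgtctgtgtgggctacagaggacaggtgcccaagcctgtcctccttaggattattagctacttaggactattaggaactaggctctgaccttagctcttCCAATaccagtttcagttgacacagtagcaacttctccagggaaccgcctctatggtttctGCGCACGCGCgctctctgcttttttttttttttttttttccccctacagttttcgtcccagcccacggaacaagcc
Psmd11: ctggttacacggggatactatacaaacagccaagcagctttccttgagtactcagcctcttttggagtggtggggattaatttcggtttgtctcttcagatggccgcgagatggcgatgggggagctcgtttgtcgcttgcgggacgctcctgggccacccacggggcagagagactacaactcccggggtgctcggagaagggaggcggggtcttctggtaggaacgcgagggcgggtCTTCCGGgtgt
Psma5: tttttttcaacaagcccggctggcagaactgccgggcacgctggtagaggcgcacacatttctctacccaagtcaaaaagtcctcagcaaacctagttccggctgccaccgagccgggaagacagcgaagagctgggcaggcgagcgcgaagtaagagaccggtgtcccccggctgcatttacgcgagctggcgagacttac

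Over the 39 members with a promoter in the RefSeq table outside chromosome 18, searched on both strands from 250 bases before to 50 after the start, each motif was counted. A member counted if any of its promoters held the motif, while the share of all promoters counts each promoter singly. Members with several promoters, such as Psma6, thus had more chances of a match, and the paired percentages are not of like units. The ETS motif was found in 15 of 39 members (38.5%, against 8.86% of all 32851 promoters), in 1 of 12 core members and 12 of 23 regulatory members. The NRF-1 motif was found in 7 (17.9%, against 4.60% of all promoters). The CCAAT box was found in 14 (35.9%, against 37.4% of all promoters), in 7 of 12 core members and 7 of 23 regulatory members. The antioxidant response element was found in 6 (15.4%, against 12.4% of all promoters): Psmb5, Psmb6, Psmc6, Psmd9, Psmd12 and Psme4. Among members with a promoter, those that rose in TAC+GFP against Sham+GFP held it in 2 of 13 cases, those that fell in 0 of 4, and those tested and not called in 4 of 21; Psmb11 was not tested. These counts say which letters are in the windows, and draw nothing about the factors that bind them.

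In pressure-overloaded hearts that received GFP, 7 of the 14 core genes tested were higher than in sham hearts and none was called lower. Regulatory genes were called in both directions. Of 45 members tested 15 rose and 5 fell in TAC+GFP against Sham+GFP, 44.4% called, where 48.1% of all genes tested were called (23.3% rose and 24.8% fell). The share called was therefore close to that of all genes, and 33.3% of members rose. The median log2 fold change was 0.13 over members and -0.01 over all genes. The core genes had a median of 0.25. Among regulatory genes 7 of 26 rose, close to the share of all genes that rose, and 3 fell, with a median of 0.07. Those that fell were the cap gene Psmc5 and the activators Psme1 and Psme3. The 47 members together took 0.546 to 0.573% of the total deposited value in TAC+GFP libraries, against 0.466 to 0.478% in Sham+GFP libraries. As jointly rescaled values the 45 tested members summed to 58402 to 62317 in TAC+GFP and 54004 to 55942 in Sham+GFP. The regulatory genes summed to 33667 to 35434 and 33381 to 34309, ranges that overlap. Since whole ventricles were sequenced, a change in the share of a cell type and a change of RNA per cell cannot be told apart, and cardiomyocyte markers were lower in the same libraries, with 5 of 8 called lower, where 24.8% of all genes were, and Ttn called higher. Their part in the proteasome values was not tested.

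Under JP2NT 8 of the 14 core genes were higher in TAC than in sham hearts and none was called lower. Of 45 members 11 rose and 2 fell in TAC+JP2NT against Sham+JP2NT, 28.9% called, where 31.9% of all genes were called (16.1% rose and 15.8% fell). The core genes had a median of 0.28, and regulatory genes rose in 3 of 26 and fell in 1, with a median of 0.06. Every core alpha gene tested had a positive difference under both vectors. These TAC and sham comparisons share no library, and over the 45 members their log2 fold changes had a Pearson r of 0.89 and a Spearman rho of 0.84, where all 13212 genes gave 0.77 and 0.78. The sign was the same for 38 of 45 members (84.4%), where it was the same for 81.0% of all genes. The correlation is across genes, which share libraries and are not independent replicates. Of 45 members 12 were called in both comparisons with the same sign, with 20 called under GFP and 13 under JP2NT. Of all 13212 genes 3509 were, a similar share, with 6357 called under GFP and 4221 under JP2NT. The count of 13 members called under JP2NT moved with single libraries. It was 7 without TAC+JP2NT replicate 1. It was lower still without Sham+JP2NT replicate 3, in a fit with 1 sham sample assumed to vary like the other groups. Without TAC+JP2NT replicate 4, the library that stood apart, 9 rose and 3 fell, and the core median was 0.24. The shares of all genes called with a library left out are not given here.

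**Figure D1:**
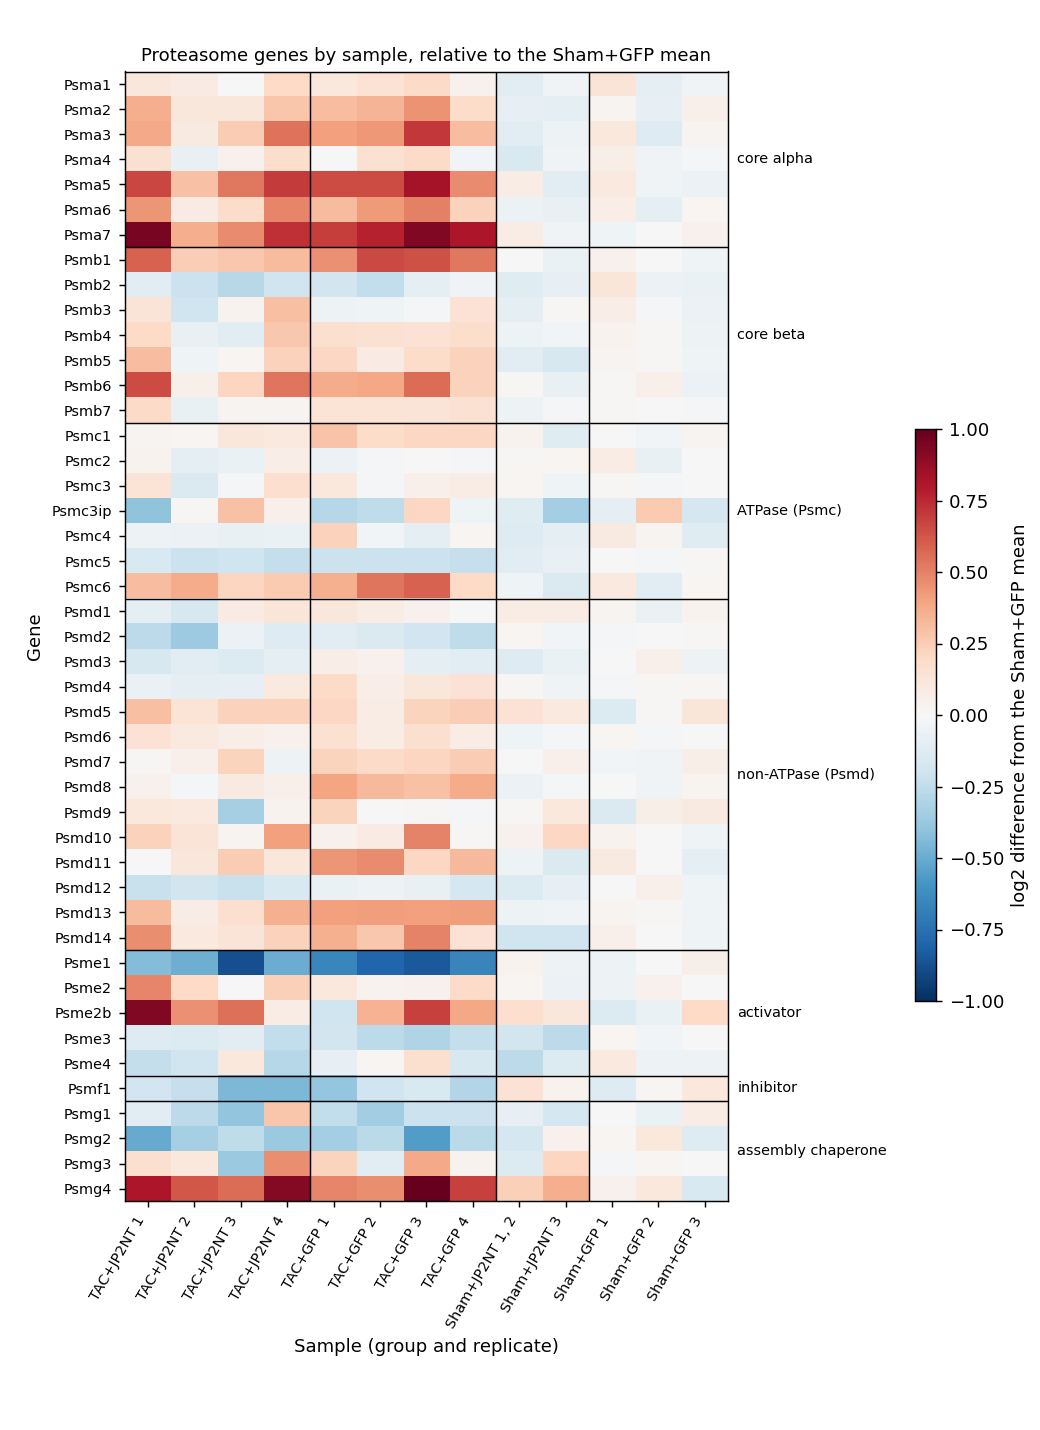
Log2 difference of each of the 45 tested genes (rows, grouped by role) from the Sham+GFP mean in each of the 13 samples (columns, TAC samples left); red is higher and blue lower, with the colour scale ending at 1 and -1. Psma7, Psma5 and Psmb1 are red across the TAC columns, Psme1 is blue in all TAC samples, and most cap genes are pale.

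Psma7, an alpha subunit (chromosome 2 from 180036374 to 180042433, minus strand, GRCm38), had the largest rise of the members under both vectors. Its value was 2598, 1727, 1861 and 2232 in TAC+JP2NT replicates 1 to 4 and 2174, 2288, 2554 and 2355 in TAC+GFP, against 1412 and 1308 in Sham+JP2NT and 1306, 1342 and 1383 in Sham+GFP. Every TAC library lay above every sham sample, and TAC+JP2NT replicates 2 and 3 lay below the other TAC libraries. The log2 fold change was 0.80 ± 0.11 (SE) under GFP (limma adjusted p = 4.49e-05) and 0.61 ± 0.12 under JP2NT (adjusted p = 0.00239).

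Psma5, another alpha subunit (chromosome 3 from 108256926 to 108279974, plus strand), had 1102, 846, 995 and 1122 in TAC+JP2NT and 1089, 1087, 1233 and 960 in TAC+GFP, against 729 and 644 in Sham+JP2NT and 739, 674 and 664 in Sham+GFP. The TAC and sham ranges did not overlap under either vector. The log2 fold change was 0.65 under GFP (limma adjusted p = 0.000128) and 0.56 under JP2NT (adjusted p = 0.00267). Of the 31-base words of its transcript, 64.0% occur in transcripts of other genes, chiefly the pseudogene Gm8394, and it overlaps an exon of 1700010K24Rik on the opposite strand, so its reads may be split or shared with those genes. Without Sham+JP2NT replicate 3 the JP2NT call for Psma5 was lost (log2 fold change 0.45).

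The other alpha genes followed with smaller differences. Psma3, Psma6 and Psma2 rose by 0.46, 0.37 and 0.32 on the log2 scale under GFP (limma adjusted p = 0.0024, 0.00527 and 0.00351) and by 0.39, 0.37 and 0.30 under JP2NT (adjusted p = 0.0224, 0.0196 and 0.0186). Psma1 and Psma4 did not pass the test, at 0.12 and 0.08 under GFP and 0.17 each under JP2NT. The alpha genes thus rose in 5 of 7 cases under each vector, where 23.3% of all genes rose under GFP and 16.1% under JP2NT. Of the 31-base words of Psma3 27.1% occur in other transcripts, chiefly Gm13835, and of those of Psma4 38.9%, chiefly Gm6542. Psma8 was near the detection limit, at 5.24 to 10.1 in TAC libraries of both vectors and 3.52 to 11.7 in sham samples, and was not tested.

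Among the beta genes Psmb1, a structural subunit with no proteolytic site, had the largest rise, with a log2 fold change of 0.57 under GFP (limma adjusted p = 5.71e-05) and 0.39 under JP2NT (adjusted p = 0.00541). Psmb2, Psmb3 and Psmb4, which have no proteolytic site either, were not called, at -0.14, 0.01 and 0.16 under GFP. Psmb11 was listed at 0 in all samples except Sham+JP2NT replicate 3, at 1.32.

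The proteolytic beta subunits showed smaller differences than Psma7. Psmb6, the caspase-like site (chromosome 11 from 70525367 to 70527858, plus strand), had 3119, 2054, 2300 and 2882 in TAC+JP2NT and 2563, 2593, 2921 and 2323 in TAC+GFP, against 1998 and 1881 in Sham+JP2NT and 1997, 2051 and 1907 in Sham+GFP. The log2 fold change was 0.39 under GFP (limma adjusted p = 0.0148) and 0.40 under JP2NT (adjusted p = 0.0359). All TAC libraries were above all sham samples, TAC+JP2NT replicate 2 only just. The GFP call was lost without Sham+GFP replicate 3 (log2 fold change 0.35), and the JP2NT call was kept in 17 of 26 alternative settings.

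Psmb5, the chymotrypsin-like site (chromosome 14 from 54614119 to 54618022, minus strand), had 2015, 1586, 1650 and 1918 in TAC+JP2NT and 1878, 1723, 1853 and 1912 in TAC+GFP, against 1516 and 1459 in Sham+JP2NT and 1662, 1648 and 1583 in Sham+GFP. It rose under JP2NT (log2 fold change 0.26, limma adjusted p = 0.0376) and was not called under GFP (0.17, adjusted p = 0.0824). The JP2NT call was kept in 15 of 26 alternative settings, and the GFP difference was called when the spread was estimated per group, when the other groups were left out of the model and when the closest TAC libraries were averaged. Between the vectors the TAC effect differed by 0.09 (95% interval -0.17 to 0.34), so no difference between them was detectable. Of its 31-base words 74.0% occur in other transcripts, chiefly Gm3375.

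Psmb7, the trypsin-like site (chromosome 2 from 38588036 to 38644087, minus strand), had 2445, 2033, 2180 and 2181 in TAC+JP2NT and 2352, 2356, 2337 and 2377 in TAC+GFP, against 2069 and 2113 in Sham+JP2NT and 2160, 2132 and 2128 in Sham+GFP. The 4 TAC+GFP libraries lay close together and above every sham sample, while TAC+JP2NT spanned the sham range. Neither difference passed the test, at 0.14 under GFP (limma adjusted p = 0.074) and 0.08 under JP2NT (adjusted p = 0.428). Under GFP it was called with the spread estimated per group, with the compared groups alone and without TAC+JP2NT replicate 1.

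**Figure D2:**
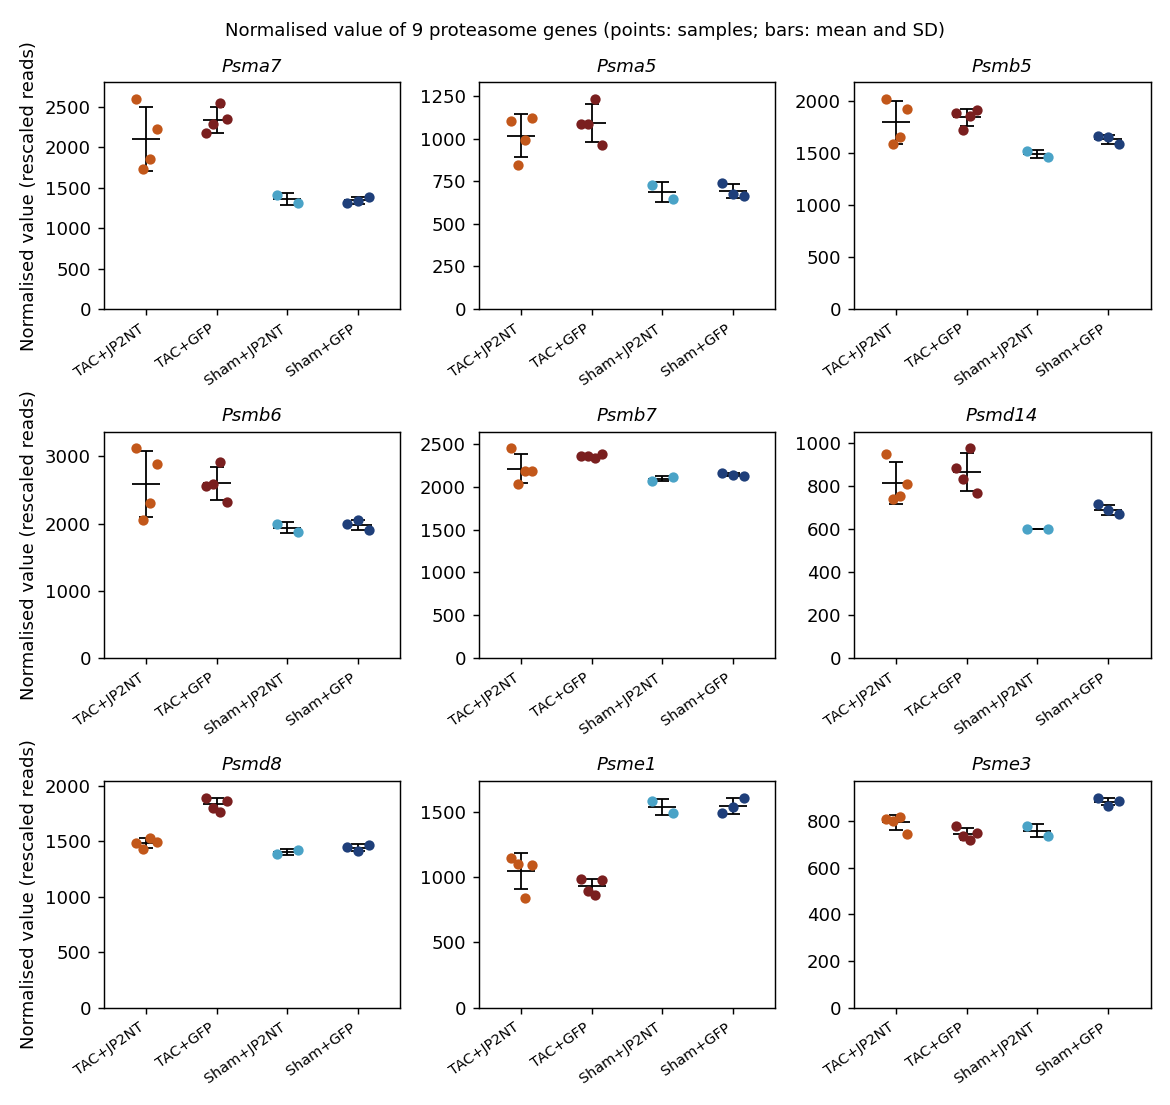
Jointly rescaled value (vertical axis from 0, scaled reads, not corrected for length) of 9 genes in the 13 samples of the 4 groups; points are samples and bars the mean and SD. Psma7, Psma5 and Psmb6 lie higher in both TAC groups than in sham hearts, Psme1 lies lower, Psmd8 is higher in TAC+GFP than in the 3 other groups, and Psme3 is highest in Sham+GFP.

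Of the 7 Psmc symbols 42.9% were called under GFP and 14.3% under JP2NT, where 48.1% and 31.9% of all genes were. Psmc6 and Psmc1 rose and Psmc5 fell in TAC+GFP against Sham+GFP, and Psmc6 was the single one called in TAC+JP2NT against Sham+JP2NT. Psmc6 stood at 1167, 1219, 1091 and 1126 in TAC+JP2NT and 1203, 1364, 1418 and 1080 in TAC+GFP, against 913 and 853 in Sham+JP2NT and 1004, 868 and 954 in Sham+GFP. Its log2 fold change was 0.42 under GFP (limma adjusted p = 0.00133) and 0.38 under JP2NT (adjusted p = 0.0107). Psmc5 went the other way, at 1061 ± 6.55 in TAC+GFP (SD, n = 4) against 1234 ± 11.9 in Sham+GFP (n = 3), a log2 fold change of -0.22 (adjusted p = 0.00296). Psmc2, Psmc3 and Psmc4 had differences between -0.03 and 0.05 under both vectors, none of them called.

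Of the 14 Psmd genes 5 rose under GFP (35.7%, where 23.3% of all genes rose) and 2 under JP2NT (14.3%, where 16.1% did), and none was called lower. All of those called are cap subunits, of which the Psmd genes include 11. Psmd13, a lid subunit, had 1389, 1174, 1256 and 1428 in TAC+JP2NT and 1484, 1489, 1488 and 1491 in TAC+GFP, against 1077 and 1089 in Sham+JP2NT and 1141, 1123 and 1087 in Sham+GFP. It rose by 0.41 on the log2 scale under GFP (limma adjusted p = 0.000172) and by 0.27 under JP2NT (adjusted p = 0.0146). It overlaps an exon of Sirt3 on the opposite strand. Psmd8, Psmd11, Psmd14 and Psmd7, lid subunits likewise, rose under GFP by 0.35, 0.36, 0.32 and 0.22 (adjusted p = 0.000122, 0.00189, 0.0112 and 0.0131). Psmd2, a base subunit that binds ubiquitin-like domains, was lower without passing the test under either vector, at -0.17 (limma adjusted p = 0.0521) and -0.20 (adjusted p = 0.0659). It stayed short of the threshold in 18 of 26 alternative settings under GFP and in 20 of 26 under JP2NT. Of its 31-base words 45.3% occur in other transcripts, chiefly Gm5422.

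Psmd14, the deubiquitinase of the lid (chromosome 2 from 61711694 to 61800376, plus strand), had 949, 738, 754 and 809 in TAC+JP2NT and 881, 832, 973 and 764 in TAC+GFP, against 599 and 601 in Sham+JP2NT and 714, 687 and 668 in Sham+GFP. The TAC libraries lay above the sham samples under both vectors. It was called under GFP (log2 fold change 0.32) and under JP2NT (0.43, limma adjusted p = 0.00705), and the calls were lost without Sham+GFP replicate 3 (0.29) and without Sham+JP2NT replicate 3 (0.41). The ubiquitin receptor Psmd4 (chromosome 3 from 95032694 to 95042614, minus strand) had 1236, 1212, 1222 and 1386 in TAC+JP2NT and 1475, 1355, 1401 and 1428 in TAC+GFP, against 1307 and 1253 in Sham+JP2NT and 1275, 1306 and 1303 in Sham+GFP. It was not called under either vector, at 0.13 under GFP (adjusted p = 0.0995) and -0.02 under JP2NT (adjusted p = 0.857). Of the assembly chaperones of the cap, Psmd5, Psmd9 and Psmd10 were not called, at 0.19, 0.06 and 0.16 under GFP.

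Of the 5 activator genes, Psme2b among them, 2 fell under GFP, 1 fell under JP2NT and none rose. Of all genes 24.8% fell under GFP and 15.8% under JP2NT. Psme1, which encodes the PA28 alpha subunit and is interferon-inducible (chromosome 14 from 55578123 to 55581529, plus strand), had 1143, 1100, 839 and 1094 in TAC+JP2NT and 981, 890, 861 and 977 in TAC+GFP, against 1582 and 1493 in Sham+JP2NT and 1487, 1539 and 1607 in Sham+GFP. Every TAC library lay below every sham sample. Psme1 had the largest fall of the members under both vectors, with a log2 fold change of -0.74 ± 0.094 (SE) under GFP (limma adjusted p = 2.45e-05) and -0.57 ± 0.11 under JP2NT (adjusted p = 0.00146). It overlaps an exon of Emc9 on the opposite strand, and the labels do not say whether counting used strand. Of its 31-base words 22.1% occur in other transcripts, chiefly Gm7776.

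Psme2, the PA28 beta subunit that pairs with Psme1 in one ring (chromosome 14 from 55587441 to 55591113, minus strand), did not fall with it. It had 835, 682, 591 and 702 in TAC+JP2NT and 637, 608, 611 and 677 in TAC+GFP, against 603 and 570 in Sham+JP2NT and 575, 610 and 597 in Sham+GFP, and was not called, at 0.09 under GFP (limma adjusted p = 0.441) and 0.25 under JP2NT (adjusted p = 0.0851). Of its 31-base words 66.2% occur in other transcripts, chiefly Psme2b, so part of the reads of these near copies may be split or shared between them. Psme2b itself was at 40.5 to 89.5 in TAC libraries and 42.2 to 53.8 in sham samples, and was not called.

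Psme3, the nuclear activator PA28 gamma (chromosome 11 from 101316213 to 101323537, plus strand), had 811, 803, 819 and 746 in TAC+JP2NT and 778, 738, 718 and 748 in TAC+GFP, against 779 and 739 in Sham+JP2NT and 899, 866 and 889 in Sham+GFP. Sham+GFP was the single group that stood apart from the others. Psme3 fell in TAC+GFP against Sham+GFP (log2 fold change -0.25, limma adjusted p = 0.00347) and was not called in TAC+JP2NT against Sham+JP2NT (0.07, adjusted p = 0.492). The test of the difference between these effects gave 0.31 (95% interval 0.12 to 0.50) with an adjusted p of 0.20, so it was not called. Psme4, the activator PA200, had 4121, 4226, 5213 and 3984 in TAC+JP2NT and 4594, 4920, 5431 and 4335 in TAC+GFP, against 4049 and 4423 in Sham+JP2NT and 5196, 4692 and 4699 in Sham+GFP. These ranges overlap within each vector, and neither difference was called, at -0.02 under GFP (adjusted p = 0.903; the sign turned in 3 alternative settings) and 0.04 under JP2NT (adjusted p = 0.795).

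The inhibitor gene Psmf1 was lower after TAC. It had 280, 272, 233 and 234 in TAC+JP2NT and 244, 278, 286 and 259 in TAC+GFP, against 352 and 328 in Sham+JP2NT and 292, 323 and 343 in Sham+GFP. It fell under GFP (log2 fold change -0.26, limma adjusted p = 0.0357) and under JP2NT (-0.42, adjusted p = 0.00932), and the GFP call was lost in 6 of 26 alternative settings, with log2 fold changes of -0.25 to -0.21. Of the alpha-ring chaperones, Psmg4 rose under GFP, at 80.6, 79.4, 120 and 92.5 in TAC+GFP against 59.1, 61.7 and 51.4 in Sham+GFP (log2 fold change 0.67, adjusted p = 0.00251). It was not called under JP2NT, at 101, 88.6, 84.9 and 109 in TAC+JP2NT against 67.5 and 73.8 in Sham+JP2NT (0.43, adjusted p = 0.0767). Psmg2 fell under GFP, at 250, 262, 214 and 261 in TAC+GFP against 321, 341 and 289 in Sham+GFP (log2 fold change -0.36, adjusted p = 0.00782), and was not called under JP2NT, at 223, 251, 265 and 244 in TAC+JP2NT against 279 and 325 in Sham+JP2NT (-0.30, adjusted p = 0.0574). Psmg1 and Psmg3 were not called under either vector.

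**Figure D3:**
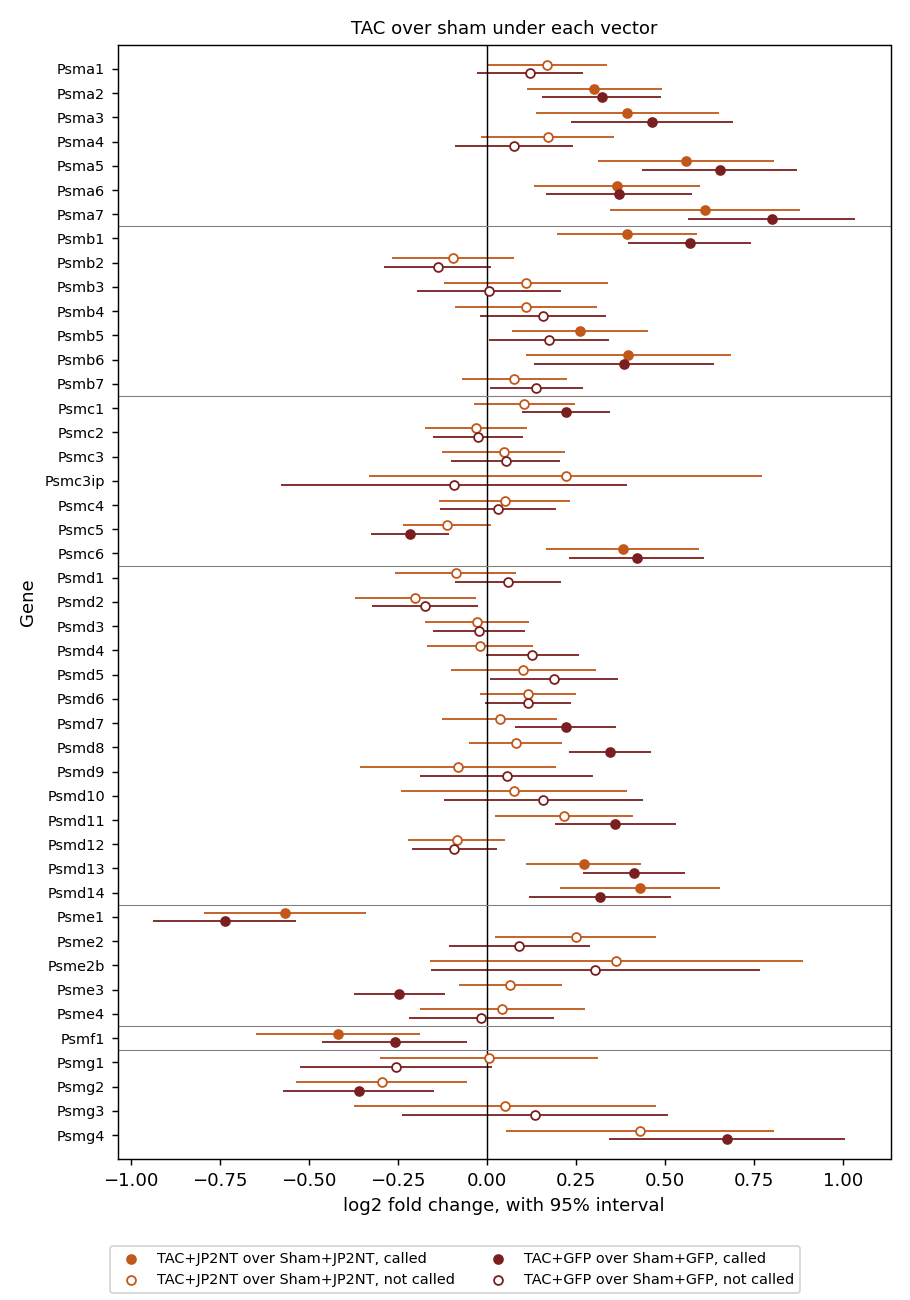
Log2 fold change of TAC over sham (horizontal axis) for each of the 45 tested genes under JP2NT (upper mark of each row) and under GFP (lower mark), with 95% intervals from limma; filled marks passed the adjusted p of 0.05. Under both vectors Psma7, at 0.61 and 0.80, lies farthest right among filled marks and Psme1, at -0.57 and -0.74, farthest left.

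The comparison of TAC+JP2NT with TAC+GFP asks what JP2NT altered in overloaded hearts. A single member was called. Psmd8, a lid subunit (chromosome 7 from 29174188 to 29180701, minus strand), had 1483, 1424, 1530 and 1492 in TAC+JP2NT and 1891, 1802, 1761 and 1865 in TAC+GFP, and 1380 and 1423 in Sham+JP2NT and 1445, 1406 and 1467 in Sham+GFP. All 4 TAC+JP2NT libraries lay below all 4 TAC+GFP libraries. Replicate 2 lay within the range of the sham samples, and replicates 1, 3 and 4 lay above it. The log2 fold change was -0.30 ± 0.05 (SE; limma adjusted p = 0.00436), and the call held in all 26 alternative settings. The TAC effect on Psmd8, 0.08 under JP2NT and 0.35 under GFP, differed by -0.27 between vectors (95% interval -0.44 to -0.09; adjusted p = 0.227), which did not pass the test.

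The 1 call among 45 is 2.22% of the members tested, where 6.15% of all genes were called (2.75% rose and 3.4% fell). The median over members was -0.07, where it was 0.00 over all genes, and 33 of 45 differences were negative. At an unadjusted p under 0.05 there were 7 members, all lower in TAC+JP2NT: Psmd8, Psmd11 (log2 fold change -0.24), Psmb1 (-0.21), Psmd13 (-0.19), Psmd4 (-0.16), Psmd7 (-0.16) and Psmc1 (-0.16). Apart from Psmd8 their limma adjusted p lay between 0.0673 and 0.128. For Psmd13 and Psmc1 the TAC+JP2NT and TAC+GFP libraries did not overlap, whereas for Psma7 they did, with a difference of -0.17 (95% interval -0.39 to 0.05). The shares of all genes passing that unadjusted p, or without overlap between these groups, were not counted. The proteolytic subunits differed by -0.05 for Psmb5 (95% interval -0.20 to 0.11), -0.02 for Psmb6 (-0.26 to 0.21) and -0.10 for Psmb7 (-0.22 to 0.03), so at this sample size no difference was detectable in them. The deposited values appear, from their scale factors, to have been scaled once per vector, so that scaling and vector cannot be told apart in the deposited numbers. Taken as deposited, 9 members were lower, with the median of all genes shifted to -0.08. Without TAC+JP2NT replicate 3 there were 3 lower and 1 higher, and without replicate 4 of that group 3 lower. Without TAC+JP2NT replicate 1 or without TAC+GFP replicate 3 there were 2 lower. The shares of all genes called in these settings are not given here.

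**Figure D4:**
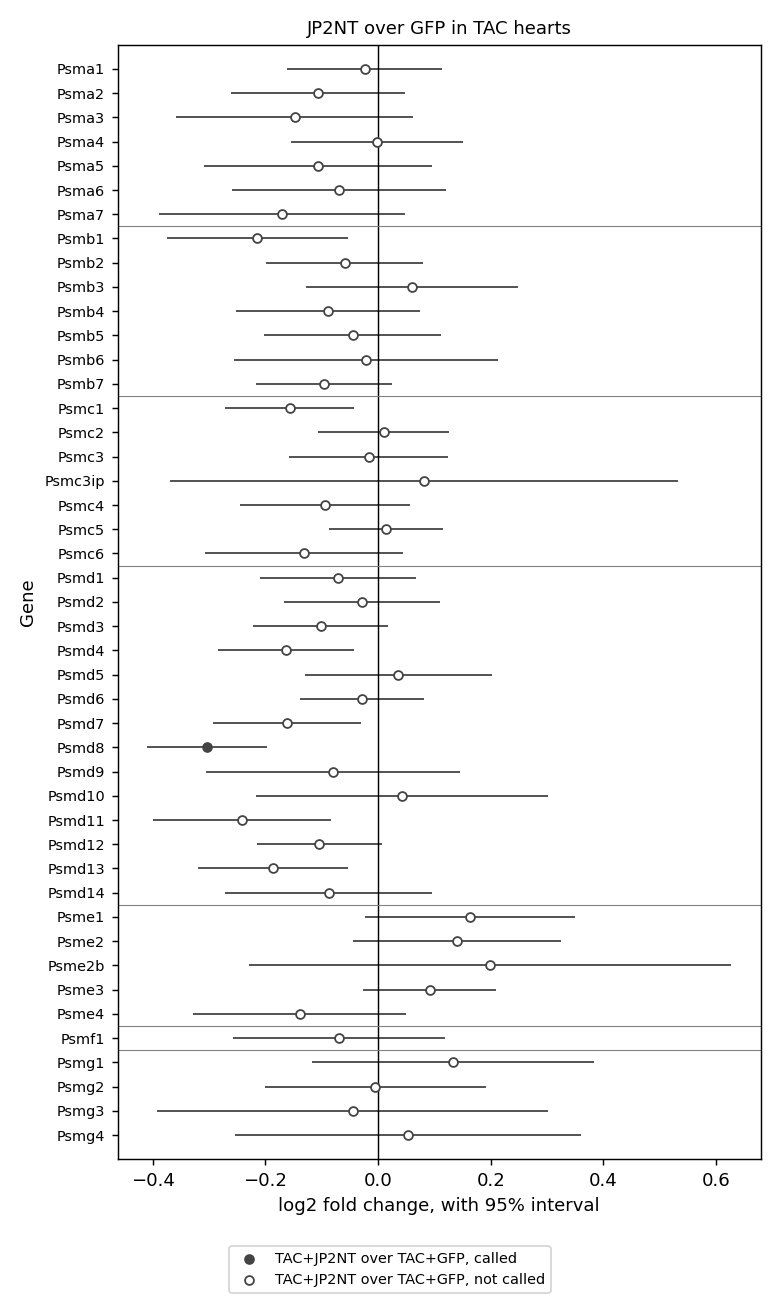
Log2 fold change of TAC+JP2NT over TAC+GFP (horizontal axis) with 95% intervals from limma for each of the 45 tested genes; the filled mark passed the adjusted p of 0.05. Psmd8, at -0.30, is the single filled mark, and 33 of 45 marks lie left of 0.

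In sham hearts no member was called between JP2NT and GFP (0% of all genes were called by limma), and 1 member, Psme3, passed an unadjusted p of 0.05. The median over members was -0.04. The effect of TAC did not pass a test of difference between the vectors for any member, where 0.0757% of all genes did (0.0378% upward and 0.0378% downward), and 2 members passed an unadjusted p of 0.05, Psme3 and Psmd8. The shares of all genes passing that unadjusted p in these comparisons were not counted.

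Samples of one group differed in how high the core genes stood. Set against Sham+GFP, the 14 core genes had a mean log2 difference of 0.36, 0.05, 0.12 and 0.33 in TAC+JP2NT replicates 1 to 4 and 0.26, 0.29, 0.38 and 0.25 in TAC+GFP, against -0.06 and -0.06 in Sham+JP2NT and 0.05, -0.03 and -0.02 in Sham+GFP. TAC+JP2NT replicates 1 and 4 thus lay within the TAC+GFP range, and replicate 2 lay at the level of Sham+GFP replicate 1. TAC+JP2NT replicate 4, nearest to the sham hearts over all genes, was not near them in its core genes. The mean of the 26 regulatory genes was 0.05, -0.02, 0.01 and 0.03 in TAC+JP2NT and 0.08, 0.06, 0.11 and 0.04 in TAC+GFP, against -0.04 and -0.05 in Sham+JP2NT and 0.00 in each Sham+GFP sample. TAC+JP2NT replicate 2 was also the most deeply sequenced library (14460617 reads), and the part of depth in its value was not tested.

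**Figure D5:**
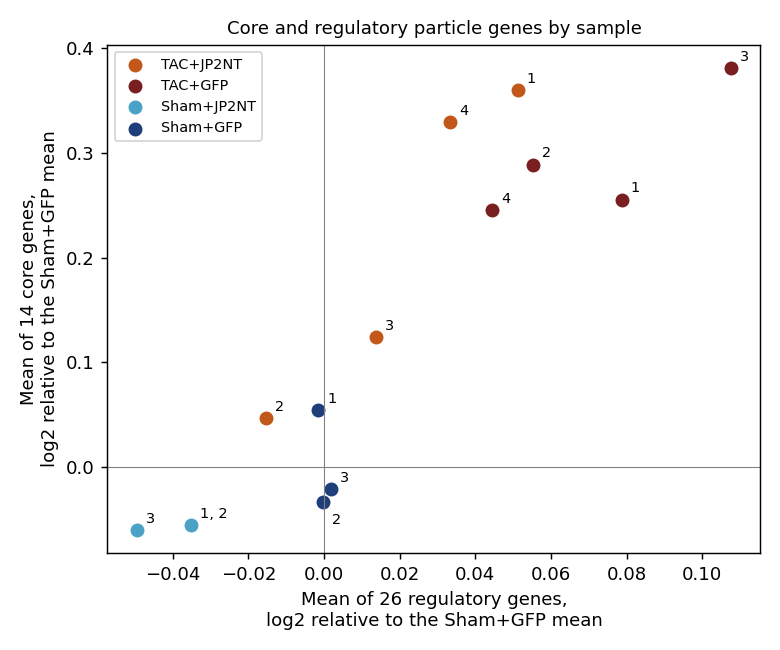
Mean log2 difference from the Sham+GFP mean over 14 core genes (vertical axis) against 26 regulatory genes (horizontal axis, which spans a smaller range) in the 13 samples, numbered by replicate. TAC+GFP samples lie at 0.25 to 0.38 for core genes, and TAC+JP2NT samples at 0.05 to 0.36.

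Core genes also moved together across samples more than regulatory genes did. The regulatory set takes in the activators, Psmc3ip and the chaperones Psmd5, Psmd9 and Psmd10 as well as the cap subunits. Over the 13 samples the median Pearson r was 0.76 among the 91 pairs of core genes, 0.09 among 325 pairs of regulatory genes and 0.25 between core and regulatory genes. After the group means were taken out these medians were 0.58, 0.05 and 0.12. The pairs share libraries and depth, and the coefficients are given as a description. Psma3, Psma6 and Psma2 followed the mean of all members most closely (r = 0.92, 0.91 and 0.91), and Psmg2, Psme1 and Psmf1 ran most against it (r = -0.68, -0.63 and -0.55). Each member is itself part of that mean. The genes outside the family whose log2 values were among the most like the members' mean over the 13 samples included Mrpl54, a mitochondrial ribosomal protein (r = 0.97), Emc7, a subunit of the ER membrane protein complex (r = 0.95), Rpl13, a cytosolic ribosomal protein (r = 0.94), and Uqcr10, a complex III subunit (r = 0.93).

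Of the 14 core genes tested 11 have transcripts under 1500 bases, and the shortest transcripts as a class stood higher after TAC. The 757 genes with transcripts under 1000 bases had a median log2 fold change of 0.15 in TAC+GFP against Sham+GFP, where the 2936 genes of 1500 to 2500 bases had -0.04. Within the class under 1000 bases the median was 0.17 for 5 core genes and 0.20 for 2 regulatory genes. From 1000 to 1500 bases it was 0.15 for 6 core genes, 0.03 for 7 regulatory genes and 0.03 for all genes. The single core gene of 1500 to 2500 bases had 0.57, and the 2 core genes of 2500 to 4000 bases had a median of 0.39, where all genes of these classes had -0.04 and -0.06. Over all genes with a length, length and log2 fold change had a Spearman rho of 0.015, given as a description across genes. The part of transcript length in the core values was not tested. Per kilobase of transcript, the median level in Sham+GFP was 1694 for core beta genes, 903 for core alpha genes, 782 for Psmc genes, 633 for Psmd genes and 618 for the activators, and Psmb6 was highest at 2487.

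Genes that act with the proteasome were called in both directions after TAC. The counts below stand against 23.3% of all genes that rose and 24.8% that fell under GFP, and 16.1% and 15.8% under JP2NT, with medians over all genes of -0.01 and 0.00. The list of assembly and transcription factors had 6 rises and 4 falls among 13 genes tested in TAC+GFP against Sham+GFP, and 4 and 2 in TAC+JP2NT against Sham+JP2NT, with medians of 0.05 and -0.09. Pomp, the chaperone that completes the core, rose by 0.22 and 0.26 on the log2 scale. Nfe2l1, the factor described above, was lower, at -0.21 under GFP (limma adjusted p = 0.0446) and -0.23 under JP2NT (adjusted p = 0.075), and Nfe2l2, its relative in the antioxidant response, rose by 0.34 and 0.37. Their partners Maff and Mafk, small Maf proteins, rose by 1.82 and 1.61 under GFP and by 1.23 and 0.66 under JP2NT. Mafk had 694, 769, 995 and 708 in TAC+JP2NT and 1697, 1865, 1387 and 1451 in TAC+GFP, against 494 ± 26.4 in Sham+JP2NT (SD, n = 2) and 520 ± 45.4 in Sham+GFP (n = 3). The JP2NT and GFP libraries of TAC hearts did not overlap for Mafk, and between them the log2 fold change was -1.02 for Mafk (limma adjusted p = 0.000552) and -0.90 for Maff (adjusted p = 0.0324). These differences also cross the vectors. Vcp, the segregase that extracts ubiquitinated proteins, and Keap1, which targets Nfe2l2 for degradation, fell under both vectors, with log2 fold changes of -0.27 and -0.32 for Vcp and -0.38 and -0.35 for Keap1.

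Among 16 other subunits and bound factors 4 rose and 5 fell under GFP, and 2 and 2 under JP2NT, with medians of -0.11 and 0.02. Ddi2, the protease that activates the Nfe2l1 protein, rose by 0.59 under GFP (limma adjusted p = 0.00257) and 0.64 under JP2NT (adjusted p = 0.0066), and the cap-bound thioredoxin-like gene Txnl1 by 0.46 and 0.41. The shuttle factor Ubqln2 fell (log2 fold changes -0.50 and -0.59). The constitutive receptor and deubiquitinases Adrm1, Uchl5 and Usp14 were not called, at -0.09, -0.20 and 0.13 under GFP. Among 9 ubiquitin and E1 genes 3 rose and 2 fell under GFP and 2 and 2 under JP2NT, with medians of 0.17 and 0.09. Rps27a, a ubiquitin-ribosomal protein fusion, rose by 0.63 and 0.47, and the second ubiquitin E1 gene, Uba6, by 1.14 and 1.35 from low values (mean 94.0 in TAC+JP2NT and 86.1 in TAC+GFP, against 35.1 in Sham+JP2NT and 39.9 in Sham+GFP). Uba1, the main E1 gene, fell (log2 fold changes -0.53 and -0.56).

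In the immunoproteasome and interferon-linked list 5 of 10 genes fell under GFP and 3 under JP2NT, with 1 rise under each and medians of -0.36 and -0.29, where 24.8% and 15.8% of all genes fell. Psmb10, the inducible counterpart of Psmb7, was the gene that rose, with 644 ± 38.1 in TAC+JP2NT (SD, n = 4) and 761.5 ± 78.9 in TAC+GFP (n = 4), against 532 ± 5.91 in Sham+JP2NT (n = 2) and 505 ± 19.4 in Sham+GFP (n = 3). Its log2 fold change was 0.59 under GFP (limma adjusted p = 4.26e-05) and 0.27 under JP2NT (adjusted p = 0.033). Psmb8 and Psmb9, the counterparts of Psmb5 and Psmb6, were not called, at -0.19 and -0.34 under GFP. Tap2 and Tapbp, antigen processing genes, fell under both vectors, with log2 fold changes of -0.55 and -0.28 under GFP. In TAC hearts Irf1, an interferon-regulated transcription factor, was higher with JP2NT than with GFP (log2 fold change 0.50, adjusted p = 0.0265). Of the macrophage markers 1 of 6 fell under GFP and none was called under JP2NT, the summed value being 1304 to 2247 in TAC+JP2NT, 1678 to 2011 in TAC+GFP, 1796 to 1850 in Sham+JP2NT and 1831 to 1920 in Sham+GFP. Of the fibroblast markers 3 of 6 rose and 1 fell under GFP, and 2 and 1 under JP2NT. Endothelial markers fell in 3 of 6 cases under each vector, and mural cell markers in 4 of 5 under GFP and 2 under JP2NT. None of the 5 T and NK cell markers was abundant enough to test, with summed values of 7.05 to 26.8. The part of other cell types in these values was not tested.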

How the data were processed

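The deposited table, made by the authors, holds 1 scaled signal value per gene and library for 14 mouse ventricle libraries (TruSeq stranded, paired-end, per the labels' protocols). The submitters' processing notes name FastQC 1.0.0, STAR 2.6.1a, Salmon and mm10. The values were not whole reads (1.63% of GFP and 1.85% of JP2NT values came within 0.001 of a whole read), so no count test was used. The deposited values appear, from their scale factors, to have been scaled separately within the 7 GFP and 7 JP2NT libraries, which no label states, and all were rescaled here by a joint unweighted TMM factor. A gene was tested if 3 or more samples reached a value of 10. limma 3.58.1 (R 4.3.3, trend) tested log2(value + 1) with group means and 1 shared spread, with Benjamini-Hochberg adjustment over all genes. The test was checked on simulated data, which is not evidence that the real groups spread alike. Their SDs ranged from 0.084 (Sham+JP2NT) up to 0.176 (TAC+JP2NT), so the shared spread is an assumption. Replicate numbers did not pair samples. Promoters came from RefSeq (GRCm38.p6) and gene positions from GENCODE on GRCm38, the build named mm10. Genes described singly were the proteolytic subunits, Psmd4, Psmd14, the activators, and up to 3 called members per direction with the largest change in each comparison; other members and list genes are examples chosen after their values were seen. The members and lists were chosen with earlier results of these data known. Alternatives covered the scaling, filter, pseudocount, spread, samples fitted, replicate block and each library left out. The table's 26 gene names turned into dates were not recovered. A few genes of the lists are not reported here by name.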

Additional observations from a re-analysis of the deposited data

Results flagged for a closer look

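In 7 of 90 gene and group combinations of 4 libraries, 1 library lay far from the other 3 relative to the group's range, where chance flags about 1 in 20. For Psmd4, TAC+JP2NT replicate 4 reached 1390 (others 1210 to 1240). For Psme1, TAC+JP2NT replicate 3 reached 839 (others 1090 to 1140), so that library carried the lowest value of a gene that fell after TAC. In TAC+GFP replicate 4, Psmb3 was 1430 (others 1250 to 1280), Psmc5 was 1050 (others 1060 to 1070) and Psmd12 was 1190 (others 1280 to 1300). Psmd10 was 164 in TAC+GFP replicate 3 (others 117 to 123), and Psmd9 was 261 in TAC+GFP replicate 1 (others 221 to 225).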

How the results depend on the processing

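There were 26 alternatives, 25 planned and 1 (closest TAC libraries averaged) chosen after seeing the data. When single libraries were left out, the members called numbered 17 to 22 in TAC+GFP against Sham+GFP and 1 to 4 in TAC+JP2NT against TAC+GFP. They numbered 7 to 16 in TAC+JP2NT against Sham+JP2NT where 2 sham samples were left. They numbered 0 in the sham comparison and in the test of the vector difference. The shares of all genes called in the alternatives are not given here. In TAC+JP2NT against Sham+JP2NT the count was 7 without TAC+JP2NT replicate 1. It was lower still without Sham+JP2NT replicate 3, where 1 sham sample is left. In TAC+JP2NT against TAC+GFP it was 9 with the values as deposited, 4 without TAC+JP2NT replicate 3, 3 without its replicate 4, and 2 without its replicate 1 or TAC+GFP replicate 3; the cause was not tested. With the replicate block over 14 separate libraries the counts were 20, 14 and 1; same-numbered libraries did not deviate together (r -0.17 to 0.07 over 13 pairs). Psme4, not called, had a TAC effect under GFP of -0.02 that turned to 0.030 with the block, and ranged from -0.075 to 0.031 over libraries left out, being positive without TAC+GFP replicate 4 or Sham+GFP replicate 1. Sample number and depth limit what can be seen: with 2 or 3 sham samples a vector, small differences were not detectable.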
